A study of Caenorhabditis elegans with 41 samples.

Results

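Body wall muscle of Caenorhabditis elegans is made of flat, obliquely striated cells that line the body and pull on the cuticle. Each cell is packed with thick filaments of myosin and paramyosin and thin filaments of actin, tropomyosin and troponin, which are anchored to the hypodermis and the cuticle through dense bodies, M-lines and integrin complexes. The genes for these proteins include the classical unc genes, whose loss leaves worms paralysed or uncoordinated, and the pat genes, whose loss arrests embryos at the 2-fold stage. The genes described here are 33 of the 20390 genes listed for each library, taken by identifier from a list of sarcomere, attachment and muscle regulator genes that was drawn up with earlier results of these data known. They were followed through 23 libraries of mRNA sequencing from whole worms.

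By role, 7 are thick filament genes, 14 are genes of the thin filament and troponin, 3 encode giant or M-line proteins, 7 are attachment genes and 1 is a regulator, hlh-1, which encodes the worm homologue of MyoD. The remaining identifier, ZK1058.1, is annotated as mmcm-1, a methylmalonyl-CoA mutase, and not as the beta integrin gene pat-3, which is the next gene on chromosome III under the identifier ZK1058.2. Counts are therefore given over the 32 muscle genes, mmcm-1 is reported apart, and pat-3 is given beside it as a gene outside the list. The titin gene ttn-1 carried a failed estimate in TY1916 embryos replicate 1 and was left out of every test, so that 31 of the 32 muscle genes were tested. No other member was lost to the filter on low values.

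The libraries fall into 8 groups from 5 strains. OP37 carries wgIs37, a multicopy fosmid with pha-4 tagged by TY1, EGFP and FLAG together with unc-119(+), and has 3 libraries labelled as embryos. VC100 is unc-112(r367) on chromosome V with the X chromosomal deletion gkDf2, and has 3 embryo libraries. Near that deletion the paper also reports a duplication. SP117 carries mnDp10, a piece of X attached to chromosome I, with unc-3(e151), and has 2 embryo, 4 L2-L3 larva and 3 young adult libraries. TY1916 carries yDp11, a piece of X attached to chromosome IV, with lon-2(e678) and unc-9(e101), and has 3 embryo libraries. The paper reports raised DNA coverage in TY1916 also at the left end of chromosome V and on the right arm of IV. Whether members lie in those stretches was not checked here. BC4289 carries sDp10, a piece of chromosome IV attached to X, and has 2 L2-L3 larva and 3 young adult libraries. Every group thus carries a rearrangement or a transgene, wild-type N2 libraries were not used here, and a difference between strains cannot be credited to one allele. According to the methods the embryos of SP117 and TY1916 were of mixed stages, while VC100 and OP37 are not named there. Nothing states that replicates came from separate cultures, so p-values measure only the spread between these libraries.

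Levels are in FPKM (fragments per kilobase of transcript, scaled to the mapped fragments of a library), a unit per length that allows genes to be compared. Read counts were not used, so no counting intervals are given. Relative depth was read off the smallest increments of low FPKM values. It was between 11.5% and 59.9% of the deepest library in SP117 L2-L3 larvae, between 29.5% and 48.0% in VC100 embryos, and between 28.3% and 100% in the other groups. Some libraries stood apart. In VC100 embryos replicate 1, the longest decile of genes minus the shortest was -1.695 on the log2 scale relative to the rest of its group, against 0.80 and 0.86 in replicates 2 and 3. The libraries labelled OP37 embryos correlated better with L2-L3 larvae (Spearman's rho 0.906 to 0.937 across 14253 genes) than with embryos (0.502 to 0.704) or young adults (0.592 to 0.648), so they are set against larvae and against VC100 embryos. OP37 replicate 3 was the lowest of its group for 31 of the 32 muscle genes, the exception being mlc-2.

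Together the 33 listed genes, mmcm-1 included, took 0.857% to 1.73% of all FPKM in the 8 embryo libraries of VC100, SP117 and TY1916. Their share was 2.02% to 2.52% in the 6 libraries of L2-L3 larvae and 1.22% to 1.69% in the 6 libraries of young adults. In the libraries labelled OP37 embryos it was 2.43%, 2.11% and 1.25%. The L2-L3 larvae held the highest group mean for 20 of the 32 muscle genes, 10 in BC4289 and 10 in SP117. TY1916 embryos held the highest mean for 9, SP117 embryos for 2 and OP37 for 1. The lowest mean was found in VC100 embryos for 11 genes, in SP117 embryos and SP117 young adults for 9 each, in BC4289 young adults for 2 and in OP37 for 1.

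**Figure D1:**
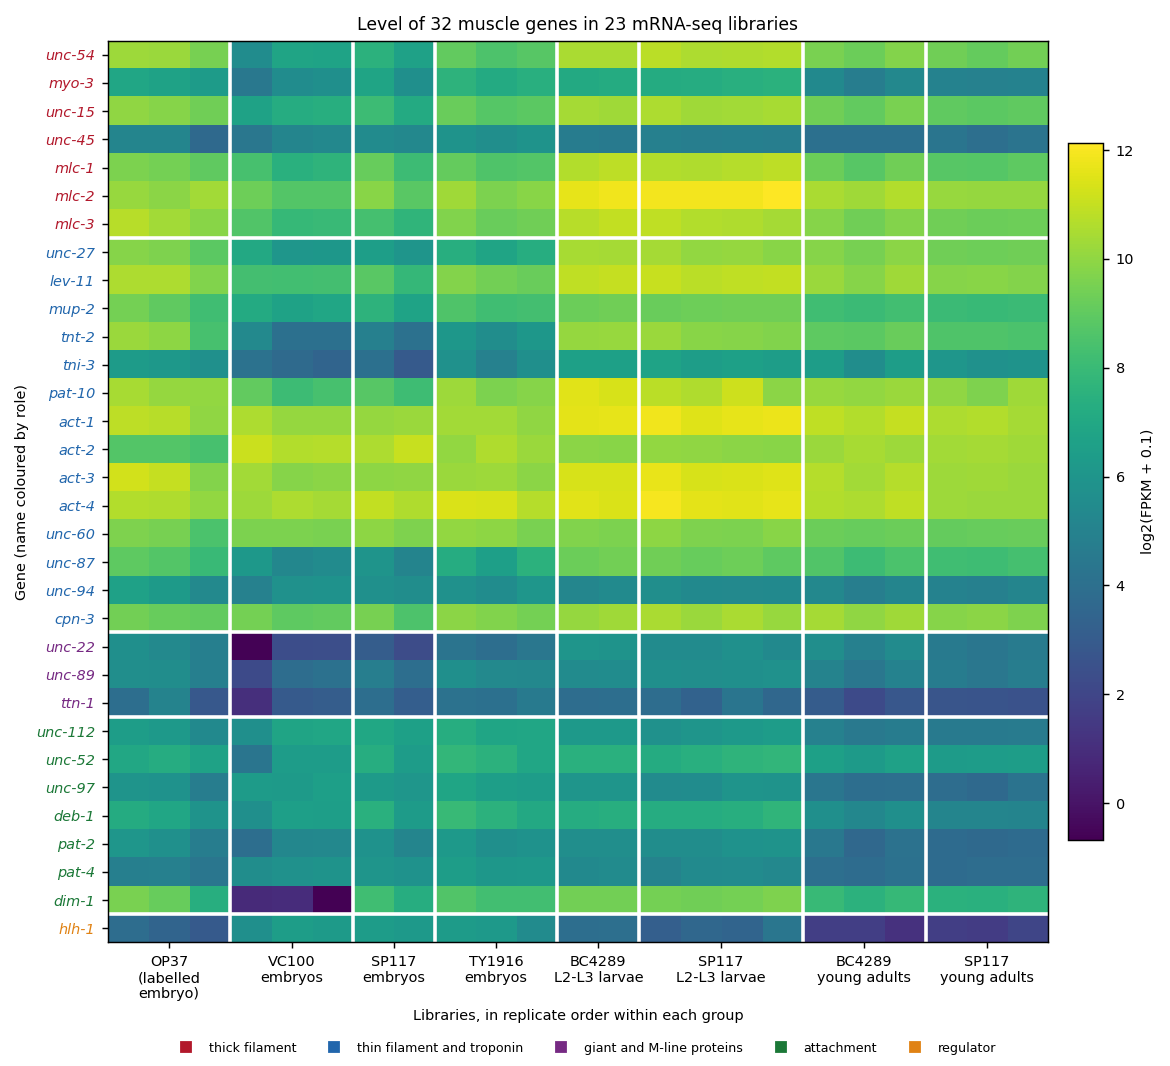
Level of each muscle gene (rows, names coloured by role) in each library (columns, grouped by strain and stage), as log2(FPKM + 0.1). Most filament genes are brightest in the L2-L3 larvae of BC4289 and SP117, hlh-1 is brightest in embryos, and dim-1 is dark in the 3 VC100 libraries.

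Most contractile genes were higher in larvae than in embryos of the same strain, while 1 of the 7 attachment genes rose and hlh-1 fell. In SP117 L2-L3 larvae against SP117 embryos, 20 of the 31 muscle genes tested were higher and 5 were lower at an adjusted p under 0.05, where 28.8% of all 13532 genes tested were higher and 40.2% lower. The median log2 difference was 1.51 for the muscle genes and -0.32 for all genes. All log2 differences are on the scale of log2(FPKM + 0.1), which understates changes of low genes.

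Among the thick filament genes, 6 of 7 rose and 1 fell. The major myosin heavy chain gene unc-54 (F11C3.3) had 1771, 1502, 1553 and 1603 FPKM in SP117 L2-L3 larvae, against 186 and 99.0 FPKM in SP117 embryos. The larval libraries all lay above the embryo libraries, and the difference was 11.8-fold (log2 3.56, SE 0.26, adjusted p = 3.33e-05). The minor heavy chain gene myo-3, whose product sits in the centre of each thick filament, had 146, 151, 168 and 179 FPKM in larvae and 110 and 51.7 FPKM in embryos. Its rise was smaller, at 2.12-fold (log2 1.09, SE 0.29, adjusted p = 0.0122). The paramyosin gene unc-15 rose 6.87-fold. The regulatory light chain genes mlc-1 and mlc-2 rose 4.24-fold and 6.17-fold, and the essential light chain gene mlc-3 rose by 2.62 on the log2 scale. The myosin chaperone gene unc-45 was the exception, with an average of 28.6 ± 1.09 FPKM in larvae (SD, n = 4) and 42.001 ± 4.55 FPKM in embryos (SD, n = 2), a fall of 0.55 on the log2 scale (adjusted p = 0.0241), which turned to a difference of 0.10 after quantile normalization.

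Of the thin filament and troponin genes, 11 of 14 rose and 1 fell. The largest change of any member was that of the troponin T gene tnt-2 (F53A9.10), which had 1198, 928, 884 and 820 FPKM in larvae, against 30.1 and 17.3 FPKM in embryos. This was 41.4-fold (log2 5.37, SE 0.27, adjusted p = 9.33e-06). The troponin I gene unc-27 had 1344, 1059, 1099 and 931 FPKM in larvae and 90.2 and 64.8 FPKM in embryos, a 14.4-fold rise (adjusted p = 1.41e-05). The calponin-repeat gene unc-87 rose 12.7-fold and the second troponin I gene tni-3 rose 8.36-fold. The tropomyosin gene lev-11, the troponin T gene mup-2 and the troponin C gene pat-10 rose by 2.58, 2.12 and 2.15 on the log2 scale. The actin-severing gene unc-60, which also makes a form for cells outside muscle, and the tropomodulin gene unc-94 were not called, at log2 differences of -0.03 and -0.23.

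The 4 actin genes did not move together. Read assignment between them is uncertain, because their coding sequences are nearly identical. In SP117 larvae act-1 and act-3 averaged 3330 ± 361 and 2863 ± 317 FPKM (SD, n = 4), against 1147 ± 68.7 and 1001 ± 30.96 FPKM in SP117 embryos (SD, n = 2), and they rose by 1.53 and 1.51 on the log2 scale. The X-linked gene act-4 rose by 0.93, but its difference became -0.60 after quantile normalization. The gene act-2, also used in the early embryo, had 1078, 1019, 968 and 914 FPKM in larvae and 1501 and 2151 FPKM in embryos, and fell by 0.86 on the log2 scale (adjusted p = 0.0072). Its share of the summed FPKM of the 4 actin genes was 31.8% ± 6.52 in SP117 embryos (SD, n = 2), 9.51% ± 0.896 in L2-L3 larvae (SD, n = 4) and 24.8% ± 0.282 in young adults (SD, n = 3).

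The giant proteins of the sarcomere followed the filaments. The twitchin gene unc-22 (ZK617.1) had 45.4, 45.2, 53.03 and 42.6 FPKM in SP117 larvae, against 8.53 and 4.89 FPKM in SP117 embryos, 7.09-fold higher (adjusted p = 6.85e-05). The obscurin gene unc-89, of the M-line, rose by 1.35 on the log2 scale. The titin gene ttn-1, which was not tested, had 10.0 to 19.4 FPKM in larvae and 8.72 and 15.5 FPKM in embryos, with overlapping ranges.

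Of the 7 attachment genes 1 rose, 2 fell and 4 were not called. The one that rose was dim-1, an immunoglobulin-repeat protein of the muscle attachment, at 3.28-fold (log2 1.71, SE 0.27). The kindlin gene unc-112 (C47E8.7) and the integrin-linked kinase gene pat-4 fell by 0.69 and 0.60 on the log2 scale, the PINCH gene unc-97 had a difference of -0.45, and the alpha integrin gene pat-2, the vinculin gene deb-1 and the perlecan gene unc-52 had 0.23, 0.51 and 0.64. With libraries centred on their medians unc-112 and pat-4 were no longer called, at -0.20 and -0.11. The beta integrin gene pat-3, outside the list, fell by 1.39 on the log2 scale (adjusted p = 0.000148), while mmcm-1 rose by 1.37.

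The regulator hlh-1 (B0304.1) went the other way from the filaments. It had 9.04, 12.01, 10.8 and 20.2 FPKM in SP117 larvae and 85.4 and 72.5 FPKM in SP117 embryos, 6.31-fold lower in larvae (log2 -2.66, SE 0.33, adjusted p = 0.000242). All 5 other muscle fate regulators tested (unc-120, hnd-1, ceh-51, tbx-8 and tbx-9) also fell, with a median log2 difference of -7.30. However, 4 of the 5, all but unc-120, had a mean FPKM under 1 in SP117 larvae. They passed the filter only through the embryos, so no other direction was possible for them, and the median rests on them. Among 25 further sarcomere and attachment genes that are not members, 10 rose and 7 fell, from -2.38 for frg-1 to 2.57 for the calponin-like gene clik-1. Of 21 genes for excitation and calcium handling in muscle, 5 rose and 2 fell, and csq-1, the calsequestrin gene, rose most, by 2.81. Markers of other tissues moved in the same comparison. Pharyngeal muscle markers rose in 5 of 6 (1 fell), intestinal markers in 6 of 9, neuronal markers in 6 of 10 (1 fell) and hypodermal markers in 4 of 9 (1 fell), with median log2 differences of 1.53, 1.77, 1.17 and 0.37. Germline markers fell in 9 of 10 (1 rose), oocyte markers in 6 of 7 and basement membrane genes in 5 of 9 (1 rose). Their part in the muscle gene differences was not tested.

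The scale of these values matters, since no spike-in was used. The median of all genes was -0.90 in TPM (transcript shares scaled to a fixed total), -0.02 after quantile normalization and 0.16 with libraries centred on their medians. The muscle genes higher and lower numbered 18 and 8 in TPM, 21 and 3 after quantile normalization and 23 and 1 after centring. Higher genes made up 41.7% of all calls in FPKM, 29.4% in TPM and 54.4% after centring.

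**Figure D2:**
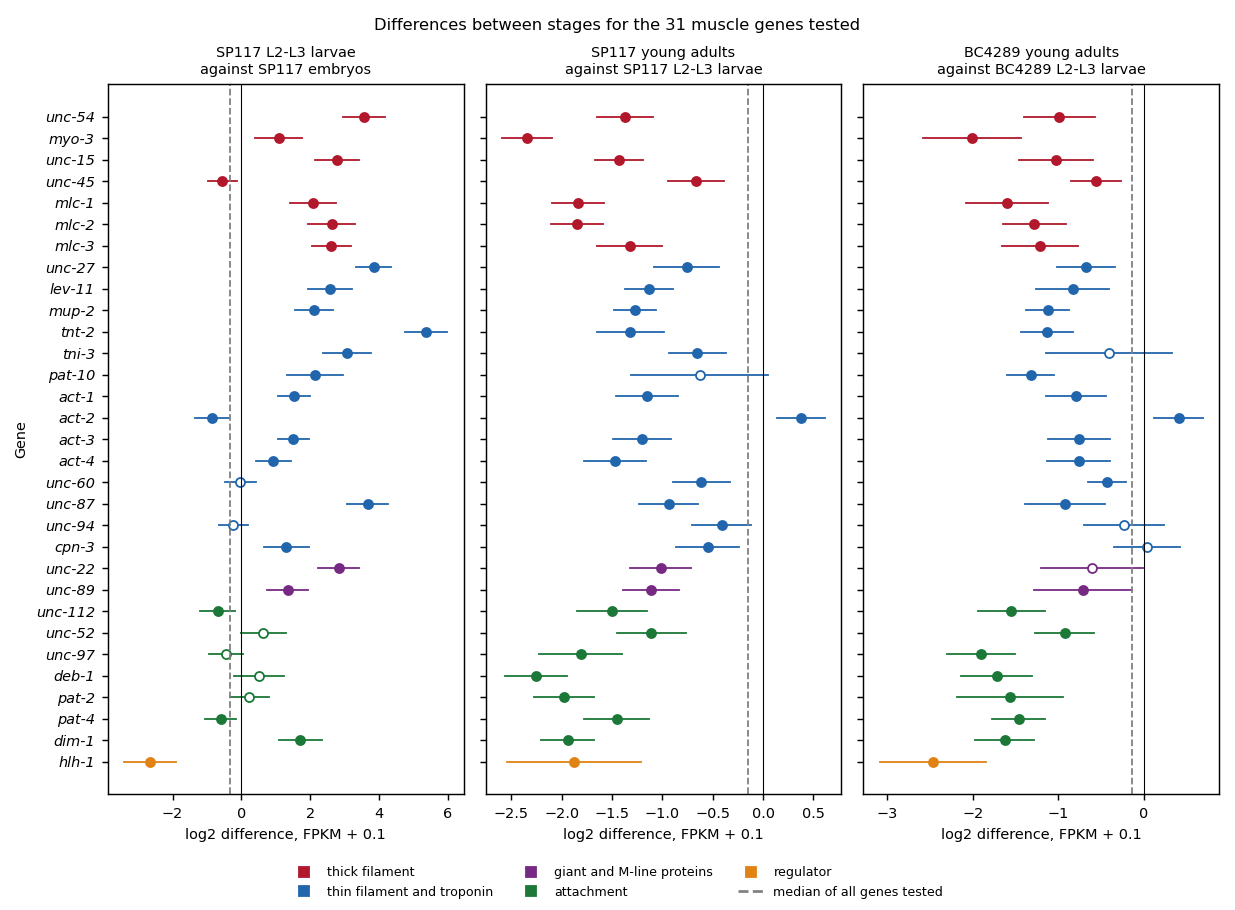
log2 difference with its 95% confidence interval for the 31 muscle genes tested, in the 3 comparisons between stages of 1 strain. Filled points passed an adjusted p of 0.05, open points did not, and the dashed line is the median of all genes tested. In larvae against embryos 6 of 7 thick filament and 11 of 14 thin filament and troponin genes lie right of 0, and act-2 is the filled point right of 0 in young adults against larvae in either strain.

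In young adults nearly every muscle gene was lower than in larvae. In SP117 young adults against SP117 L2-L3 larvae 29 of 31 tested genes were lower and 1 was higher, where 40.1% of all 13593 genes were lower and 36.7% higher. In BC4289 the same comparison gave 26 lower and 1 higher, where 37.3% of 13722 genes were lower and 36.7% higher. The median log2 difference of the muscle genes was -1.27 in SP117 and -0.99 in BC4289, against -0.15 and -0.14 over all genes. In TPM the medians of all genes were 0.16 and 0.40, the muscle genes called lower numbered 27 in SP117 and 17 in BC4289, and higher genes made up 65.8% of all calls in BC4289, against 49.6% in FPKM. The larval libraries of SP117 also entered the comparison with embryos, so the size of the fall and of the earlier rise are not independent.

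The heavy chain gene myo-3 and most attachment genes were among those that fell most, together with the regulator hlh-1. The fall of hlh-1 was 1.88 on the log2 scale in SP117 and 2.46 in BC4289. The heavy chain gene myo-3 had 31.6, 31.2 and 31.8 FPKM in SP117 young adults, against 146, 151, 168 and 179 FPKM in SP117 larvae (5.08-fold lower, adjusted p = 1.88e-06). In BC4289 it had 42.7, 26.7 and 39.7 FPKM in young adults and 139 and 148 FPKM in larvae (4.03-fold lower, adjusted p = 0.0011). The vinculin gene deb-1, of the dense bodies, was 4.77-fold lower in SP117 young adults and 3.299-fold lower in BC4289 young adults. All 7 attachment genes fell in both strains, with medians of -1.81 in SP117 and -1.56 in BC4289. So did all 7 thick filament genes, with medians of -1.43 and -1.22. The integrin gene pat-3, outside the list, averaged 44.8 FPKM in SP117 young adults and 59.9 FPKM in SP117 larvae. In BC4289 it averaged 44.9 FPKM in young adults and 60.8 FPKM in larvae.

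The thin filament and troponin genes fell less far, at medians of -0.85 in SP117 and -0.76 in BC4289. The calponin gene cpn-3 fell by 0.55 on the log2 scale in SP117 and had a difference of 0.03 in BC4289, and unc-60 fell by 0.61 in SP117 and by 0.43 in BC4289, the second of which turned to 0.06 in TPM. The gene act-2 was the one that rose, with 1293, 1333 and 1246 FPKM in SP117 young adults and 914 to 1078 FPKM in SP117 larvae (log2 0.38, adjusted p = 0.0107), and with 1164, 1395 and 1239 FPKM in BC4289 young adults against 972 and 935 FPKM in BC4289 larvae (log2 0.41, adjusted p = 0.0221). With libraries centred on their medians neither rise was called, at 0.21 and 0.28. The regulator hlh-1 fell further, to between 2.11 and 3.84 FPKM in the 6 young adult libraries, against 9.04 to 20.2 FPKM in the 6 larval libraries.

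The gene pat-10 for troponin C varied among larvae of SP117, with 1779.5, 1569.97, 2255 and 971 FPKM, and had 1019, 807 and 1278 FPKM in SP117 young adults. Its difference there, -0.63, was not called, while in BC4289 it fell by 1.32 on the log2 scale (1129, 1066 and 1168 FPKM in young adults, 2987 and 2635 FPKM in larvae). Whether the change to young adults differs between BC4289 and SP117 was tested as an interaction in limma, which called 0 of the 31 genes (5 had an unadjusted p under 0.05, as did 7.07% of all genes, and 0.0291% of all genes were called lower). The median of that difference was 0.24, and its interval for pat-10 ran from -1.55 to 0.16. The lists around the members moved as well. Of 21 excitation and calcium handling genes all 21 fell in either strain, and of 26 further sarcomere and attachment genes 19 fell and 2 rose, frg-1 and gipc-1. Basement membrane genes fell in 7 of 9 in SP117 and 6 of 9 in BC4289, with 1 of 9 higher in each. Of the other muscle fate regulators 3 were tested, and in either strain unc-120 fell while hnd-1 and tbx-9 were higher. In larvae of either strain 4 of the 5 regulators, all but unc-120, had a mean FPKM under 1. Thus hnd-1 and tbx-9 passed the filter only through the young adults, and no other direction was possible for them.

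Young adults hold a grown germline. In whole worms, a smaller share of a tissue cannot be told apart from less RNA per cell. All 10 germline markers rose in young adults in either strain, to sums of 2499 to 2670 FPKM in SP117 young adults, against 164 to 207 FPKM in SP117 larvae. The 10 oocyte markers summed to 7731 to 7938 FPKM in SP117 young adults and to 21.5 to 28.9 FPKM in SP117 larvae, and the 10 sperm markers to 197 to 267 FPKM and to 0.514 to 5.06 FPKM. In SP117 larvae all 10 sperm markers and 2 oocyte markers had a mean FPKM under 1. Neuronal markers fell in 9 of 10 in SP117 and 10 of 10 in BC4289, and pharyngeal muscle markers in 6 of 6 and 5 of 6. Hypodermal markers fell in 8 of 10 in SP117 and 7 of 10 in BC4289 (1 rose in each), and intestinal markers in 6 of 9 in either strain, with 3 of 9 higher. The part of these tissues in the fall of the muscle genes was not tested.

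Some paired genes changed their balance between stages, and a ratio within a library does not depend on its scale. The FPKM ratio of unc-54 to myo-3 was 1.80 ± 0.157 in SP117 embryos (SD, n = 2), 10.1 ± 1.46 in L2-L3 larvae (SD, n = 4) and 19.8 ± 1.997 in young adults (SD, n = 3), without overlap between stages. BC4289 had 20.9 ± 2.80 in young adults (SD, n = 3) and 10.2 ± 0.477 in larvae (SD, n = 2). The ratio of the troponin T genes tnt-2 and mup-2 was 0.158 ± 0.00173 in SP117 embryos, 1.53 ± 0.334 in larvae and 1.46 ± 0.108 in young adults, so that it separated embryos from later stages while larvae and young adults overlapped. The ratio of the troponin I genes unc-27 and tni-3 was 6.99 ± 2.01 in SP117 embryos, 11.699 ± 0.864 in larvae and 10.9 ± 0.809 in young adults. The ratio of paramyosin to the major myosin, unc-15 to unc-54, was 1.44 ± 0.0418 in SP117 embryos, 0.839 ± 0.0142 in larvae and 0.806 ± 0.0653 in young adults. No test was run on these ratios.

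**Figure D3:**
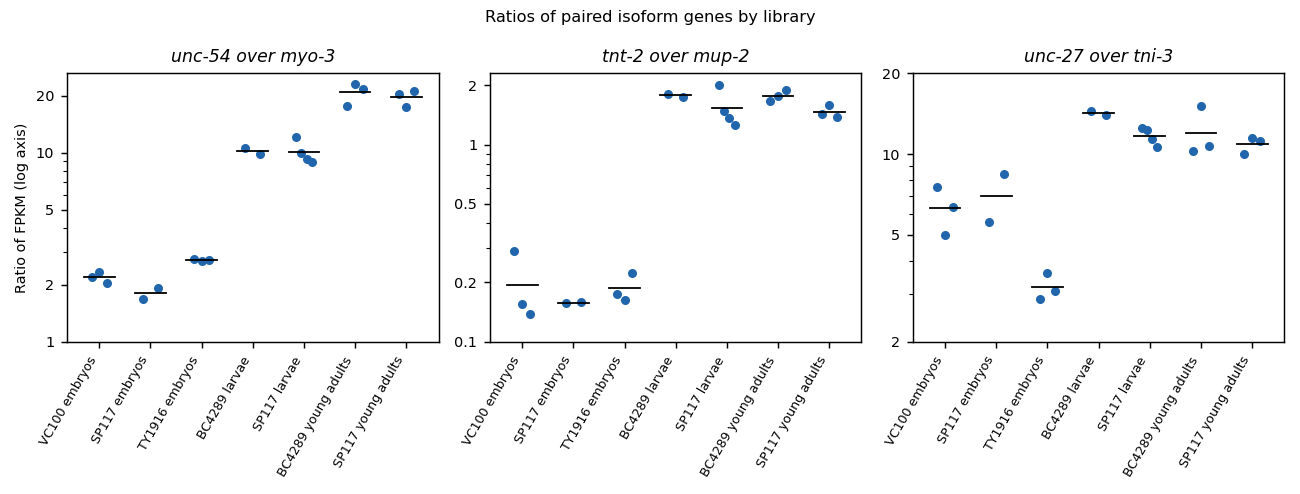
Ratio of FPKM between paired genes in each library (points) on a log axis, with group means (lines), for embryos, L2-L3 larvae and young adults of 4 strains. The ratio of unc-54 to myo-3 is 1.80 in SP117 embryos, 10.1 in SP117 larvae and 19.8 in SP117 young adults, and that of tnt-2 to mup-2 differs between embryos and the 2 later stages.

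VC100 concerns muscle attachment directly, since its genotype names unc-112, and since dim-1 (C18A11.7) at chromosome X positions 8050421 to 8058170 (WS220) lies in its deletion. UNC-112 is the worm kindlin, which links integrin to the actin filaments, and loss of dim-1 is known to suppress the paralysis of unc-112(r367). The dim-1 level was 1.71, 1.86 and 0.525 FPKM in the VC100 embryos, against 299 and 158 FPKM in SP117 embryos and 408, 307 and 309 FPKM in TY1916 embryos. The groups did not overlap, and the log2 difference was -8.02 against TY1916 (SE 0.44, adjusted p = 0.000288) and -7.38 against SP117 (SE 0.58, adjusted p = 0.0153). The call against SP117 was lost when either SP117 library was left out, while the dim-1 difference stayed between -7.84 and -6.85 whichever library was left out.

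The low stretch did not end with dim-1. On the right of it the genes C18A11.3, nssp-82, C18A11.1, K07E3.4, dao-3 and vem-1 were also lower in VC100 than in TY1916 embryos, with log2 differences between -7.85 and -5.94, and C18A11.3 and nssp-82 were listed at 0 in every VC100 library. The next gene beyond, catp-5, starting at 8089753, had 3.34 FPKM on average in VC100 embryos and 3.93 FPKM in TY1916 embryos (log2 -0.31, not called). The next tested gene to the left, xol-1, ending at 8044360, was higher in VC100 (log2 0.95, adjusted p = 0.0468). Whether the duplication that the paper reports near the deletion covers xol-1 was not tested. The other gene of the genotype, unc-112, lies on chromosome V, and its mRNA was 51.8, 109 and 118 FPKM in VC100 embryos, 124 and 98.6 FPKM in SP117 embryos and 155, 116 and 121 FPKM in TY1916 embryos. The ranges overlapped, and neither difference was called (log2 -0.57 against TY1916 with an interval of -1.35 to 0.21, and -0.34 against SP117 with an interval of -1.29 to 0.61). The lowest value belonged to VC100 replicate 1, and without it the difference to SP117 was 0.04.

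**Figure D4:**
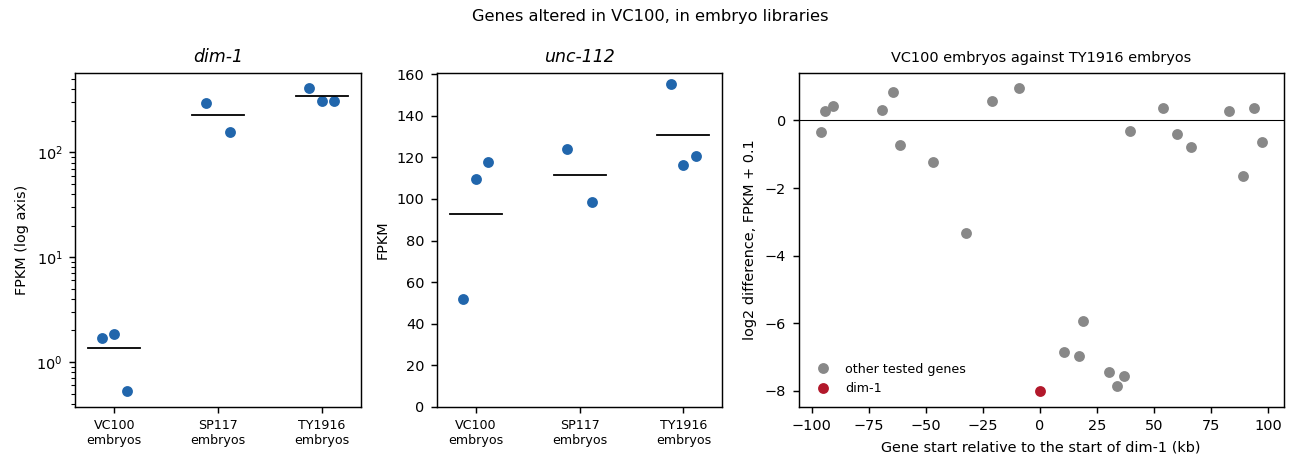
Left and middle, FPKM of dim-1 (log axis) and unc-112 (linear axis from 0) in the embryo libraries, with group means as lines. Right, log2 difference of the tested genes within 100 kb of dim-1 in VC100 against TY1916 embryos, by distance of the gene start from that of dim-1. The 3 VC100 libraries lie between 0.525 and 1.86 FPKM for dim-1, the genes just right of dim-1 are low with it, and the unc-112 ranges overlap.

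Other members were low in VC100 embryos as well, but mainly against TY1916. There 16 of 31 genes were lower and 0 higher, where 19.1% of all 13118 genes were lower and 8.76% higher. The median log2 difference was -1.11 for the muscle genes and -0.11 for all genes. After quantile normalization 18 muscle genes were lower, while the higher share of all calls was 51.4%, against 31.4% in FPKM. The heavy chain gene unc-54 had 46.7, 110 and 107 FPKM in VC100 embryos and 536, 378 and 453 FPKM in TY1916 embryos (5.51-fold lower, adjusted p = 0.00705). The twitchin gene unc-22 had 0.569, 4.98 and 5.12 FPKM in VC100 and 18.8, 15.1 and 21.1 FPKM in TY1916 (7.004-fold lower, adjusted p = 0.0348). All 7 thick filament genes were lower in every VC100 library, 6 of them at the threshold, and of the thin filament and troponin genes tnt-2, tni-3, pat-10, mup-2, lev-11 and unc-87 fell while the 4 actin genes were not called, with differences between -0.75 and 0.52. Of the attachment genes only dim-1 and deb-1 were called. Outside the members, 12 of 25 further sarcomere and attachment genes and 11 of 21 excitation and calcium handling genes fell, and 0 rose in either list. The other muscle fate regulators went the opposite way, with 3 of 5 higher and 0 lower (median log2 difference 1.00).

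The share of all genes called is not given for fits with a library left out, and this count of members rests on few libraries. It was 3 without TY1916 replicate 1, 8 without TY1916 replicate 2, 9 without VC100 replicate 2 or 3, and 21 without VC100 replicate 1, the library with few reads on long genes. That library also had the lowest values of unc-22, unc-89 and ttn-1, whose gene bodies are the longest of the members. Without it the unc-22 difference was -1.83 and still called, whereas unc-22 was not called under quantile normalization or without any 1 of the TY1916 libraries. The genes unc-15, mup-2 and dim-1 were called in every alternative. Oocyte markers summed to 633 to 984 FPKM in VC100 embryos and to 160 to 527 FPKM in TY1916 embryos, and 3 of 9 tested rose. Pharyngeal muscle markers summed to 163 to 241 FPKM in VC100 and to 413 to 623 FPKM in TY1916, and 4 of 6 fell, myo-2 by 3.21. Neuronal markers fell in 8 of 10, hypodermal markers in 5 of 10, intestinal markers in 4 of 9 and basement membrane genes in 3 of 9, while 3 of 10 germline markers rose. The part of these tissues in the lower muscle genes was not tested, and strain and embryo age cannot be told apart.

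Against SP117 embryos, dim-1 was the one muscle gene called in VC100, where 0.0325% of all 12307 genes were lower and the same share higher. It was also the only one of the 31 with an unadjusted p under 0.05 there, and the median of the muscle genes was -0.22, against 0.06 over all genes. SP117 embryos in turn were lower than TY1916 embryos for 9 of 31 genes and higher for 0, where 6.31% of 13226 genes were lower and 0.439% higher. These were unc-54, unc-15, mlc-3, unc-22, tnt-2, tni-3, pat-10, mup-2 and unc-87. The values of unc-54 were 186 and 99.0 FPKM in SP117 embryos and 536, 378 and 453 FPKM in TY1916 embryos (3.32-fold lower, adjusted p = 0.0214). The count was 16 without SP117 replicate 1, 1 without TY1916 replicate 1 and 0 when SP117 replicate 2 or either other TY1916 library was left out. The 2 SP117 embryo libraries differed from each other, with replicate 2 lower for 29 of the 32 muscle genes. The TY1916 libraries entered both this comparison and that of VC100.

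In BC4289 the twitchin gene unc-22 is of interest for its place. It spans positions 11972685 to 12010984 of chromosome IV (WS220). The published coverage plot shows that stretch as raised in the strain. DNA libraries were not analysed here, so its copy number was not measured. It had 64.5 and 60.3 FPKM in BC4289 larvae, against 45.4, 45.2, 53.03 and 42.6 FPKM in SP117 larvae. It had 50.2, 30.2 and 44.9 FPKM in BC4289 young adults, against 22.997, 20.5 and 25.4 FPKM in SP117 young adults. BC4289 lay above SP117 in every library at either stage, but the differences did not pass the adjusted test, at 1.34-fold in larvae (log2 0.43, SE 0.16, interval 0.04 to 0.81, adjusted p = 0.638) and 1.78-fold in young adults (log2 0.83, SE 0.20, interval 0.34 to 1.32, adjusted p = 0.357). The genes around it showed the same direction. Of 38 other tested genes within 100 kb, 37 had a positive difference in larvae (median 0.56), as did 7242 of all 12870 genes tested. Of 42 in young adults 40 did (median 0.47), as did 5758 of all 12827 genes. At either stage limma called 0 of these neighbours.

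**Figure D5:**
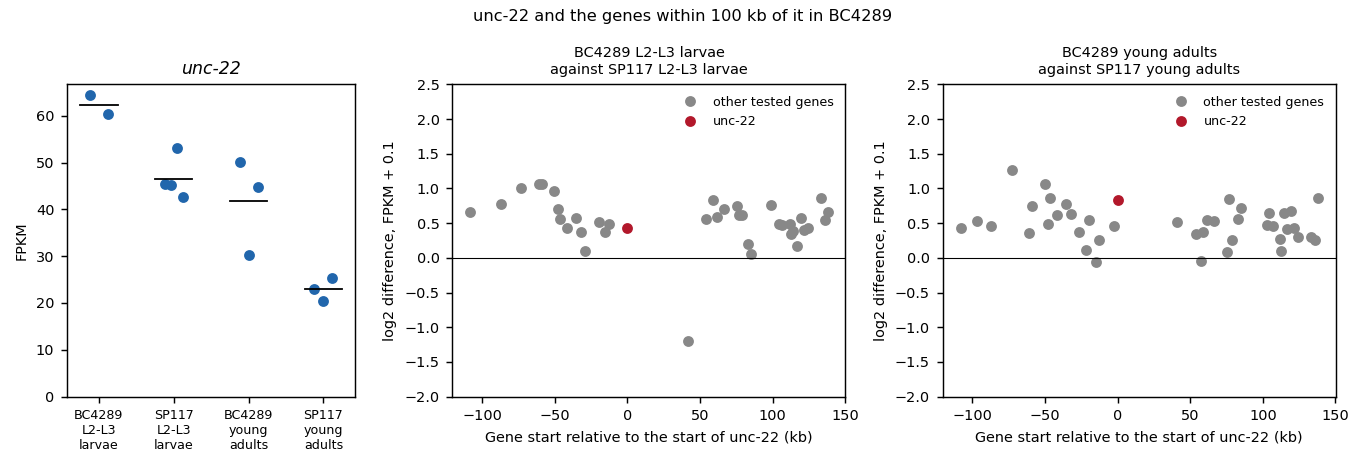
Left, FPKM of unc-22 in BC4289 and SP117 libraries of larvae and young adults, with group means as lines. Middle and right, log2 difference between BC4289 and SP117 for tested genes within 100 kb of unc-22, by distance of the gene start from that of unc-22. Nearly all points lie above 0 at either stage, with medians of 0.56 and 0.47 for the genes around unc-22.

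The other members differed little between the strains. In BC4289 L2-L3 larvae against SP117 L2-L3 larvae limma called 0 of 31 muscle genes (2 at an unadjusted p under 0.05, unc-22 and pat-10), where 0.0311% of 12870 genes were higher and 0.00777% lower. Their median was -0.05 and the differences ran from -0.22 for act-4 and mlc-2 to 0.83 for pat-10. In young adults 0 of 31 were called, where 0.0546% of 12827 genes were higher and the same share lower. However, 28 of 31 differences were positive, where 5758 of the 12827 genes had a positive difference. The median was 0.26 for the muscle genes, against -0.03 over all genes. There 10 genes had an unadjusted p under 0.05, as did 7.89% of all genes. The troponin T gene tnt-2, for example, had 492, 470 and 581 FPKM in BC4289 young adults and 383, 390 and 367 FPKM in SP117 young adults (1.35-fold, adjusted p = 0.282). Without BC4289 young adults replicate 2, the lowest of its group for 29 of the 32 muscle genes, 7 genes were called higher, from 0.46 for lev-11 to 1.05 for unc-22 on the log2 scale. With replicate 1 or 3 left out instead, 0 were called. Since replicate 2 was low for these same genes, leaving it out favours higher calls. The share of all genes called in that fit is not given here.

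The regulatory light chain genes mlc-1 and mlc-2 lie near the right end of X, at 17459086 to 17460705 and 17455519 to 17456520, within mnDp10 of SP117 by the same plot. Their sequences are nearly identical, so reads may be split between them. In SP117 embryos against TY1916 embryos their differences were -0.19 and -0.57, while 18 other tested genes within 100 kb had a median of 0.32. In BC4289 larvae against SP117 larvae they were 0.05 and -0.22, against a median of -0.35 for 21 other genes nearby. In BC4289 young adults against SP117 young adults they were 0.29 and 0.35, and 19 other genes nearby had a median of 0.01, with 10 positive and 9 negative. In VC100 embryos against SP117 embryos they were -0.77 and -0.43, against a median of -0.52 for 17 others. None of these was called, and this neighbourhood was picked after its values were seen.

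The libraries labelled OP37 embryos lay near larvae in the ratio of unc-54 to myo-3 and in hlh-1. Most of their muscle genes were lower in FPKM than in larvae. The ratio of unc-54 to myo-3 was 10.1, 11.4 and 8.98 in the OP37 libraries, against 8.95 to 12.17 in the 6 larval libraries and 1.69 to 2.75 in the 8 embryo libraries. Their hlh-1 level was 14.8, 10.9 and 7.75 FPKM, against 45.6 to 87.1 FPKM in the embryo libraries of the other strains. Against VC100 embryos 16 of 31 genes were higher and 3 lower, where 28% of 13469 genes were higher and 38.2% lower, and the 3 lower were hlh-1, act-2 and pat-4. The largest was dim-1, with 745, 564 and 164 FPKM in OP37 and 0.525 to 1.86 FPKM in VC100 embryos, whose deletion covers the gene.

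Against the 6 larval libraries, 6 of 31 genes were lower in OP37 and 0 higher, where 7.03% of 12895 genes were lower and 3.7% higher. They were mlc-1, mlc-2, act-1, act-2, act-4 and cpn-3. Of the 31 genes 1 had a positive difference, as did 6353 of the 12895 genes. An unadjusted p under 0.05 in limma was found for 19, as for 26.75% of all genes. Reads may be split between near-identical copies of the light chain and actin genes, among which act-3 was not called. The cause of the lower values was not tested. The light chain gene mlc-2 had 1158, 954 and 1297 FPKM in OP37, against 3217 to 4477 FPKM in the larvae, 3.29-fold lower (adjusted p = 0.000855), and act-2 had 412, 414 and 336 FPKM, against 914 to 1078 FPKM (2.52-fold lower, adjusted p = 0.00236). In TPM the median of all genes was 0.63 and that of the muscle genes 0.04, against -0.01 and -0.61 in FPKM. The higher share of all calls was 91.5% in TPM and 34.5% in FPKM, and in TPM act-2, mlc-1 and mlc-2 were still lower while act-1, act-4 and cpn-3 were not called. Without OP37 replicate 3 the count was 7 lower and 1 higher.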

How the data were processed

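Whole worms of 5 strains gave 23 stranded poly(A) mRNA libraries in 8 groups, and 18 DNA samples were not analysed here. The authors aligned reads to WS220 with HISAT2 2.2.1 and deposited FPKM values per gene from Cufflinks 2.2.1. The deposited TPM values were used as an alternative, and how the authors obtained them is not given in the sources used here. The study's own fold changes rest on read counts, which were not used. From the 20390 genes, 51 whose estimate had failed somewhere were dropped, as were 12 encoded by mitochondria.

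Each comparison was fitted with limma 3.58.1 (R 4.3.3) on log2(FPKM + 0.1), over genes averaging 1 FPKM or more across its libraries, using only the groups compared. P-values were adjusted by Benjamini-Hochberg over all genes tested, and genes under 0.05 were called higher or lower. The interaction was fitted over the 4 larval and young adult groups. The scripts were tested on simulated data. Figures and summaries used Python 3.11.15 with pandas 2.3.3 and matplotlib 3.10.9. Members and gene lists (further sarcomere and attachment genes, excitation and calcium handling, muscle fate regulators, pharyngeal muscle, basement membrane, hypodermis, intestine, neuron, germline, oocyte and sperm) were chosen with earlier results of these data known. All members were eligible to be named, with the largest changes in each role given in full, and from the other lists the genes with the largest called changes. Alternatives were pseudocounts, filters, TPM, quantile normalization, median centring, 1 fit over all libraries, a replicate block and leaving out each library.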

Additional observations from a re-analysis of the deposited data

Results flagged for a closer look

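In the 4 libraries of SP117 L2-L3 larvae, 1 library lay far from the other 3 for 3 genes by Dixon's criterion. The mmcm-1 level of replicate 4 was 51.61 FPKM, against 95.02 to 103 FPKM in the other 3. The regulatory light chain gene mlc-2 reached 4477 FPKM in replicate 4 and 3823 to 3885 FPKM in the others. The tropomodulin gene unc-94 had 49.71 FPKM in replicate 1 and 40.97 to 41.7 FPKM in the others. At the 95% level used, chance alone marks about 5% of groups, and 33 genes were examined. The causes were not tested.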

How the results depend on the processing

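The counts of muscle genes called in stage comparisons and in OP37 against VC100 embryos stayed within 1.5 times under every alternative run. In the stage comparisons, 19 of 25, 25 of 30 and 16 of 27 called genes kept their call in all alternatives, and 18 of 19 did in OP37 against VC100. For VC100 against TY1916 embryos (16 called), 9 were called without a filter and 3 to 21 with a library left out. For VC100 against SP117 embryos (1 called) the count was 0 without a filter and 0 to 1 with a library left out. For SP117 against TY1916 embryos (9 called) it was 0 without a filter, 5 where the average FPKM had to reach 5, 4 in TPM, 5 after quantile normalization and 0 to 16 with a library left out. For BC4289 against SP117 young adults (0 called) it was 0 to 7 with a library left out. For OP37 against larvae (6 called) it was 14 after median centring and 12 in a fit over all 23 libraries. The causes were not tested.

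Directions turned for unc-45 (0.10) and act-4 (-0.60) in SP117 larvae against embryos after quantile normalization, and for unc-60 in BC4289 young adults against larvae in TPM (0.063). The difference of unc-112 between VC100 and SP117 embryos ran from -0.55 to 0.04 (0.0375) with a library left out.

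Replicate numbers do not mark a shared culture or day in the labels. Same-numbered deviations correlated between -0.204 and 0.0893 for VC100 and TY1916 embryos, at 0.455 for SP117 and TY1916 embryos (1 value from 2 pairs), and between 0.0411 and 0.234 for BC4289 and SP117 young adults. With the replicate block, 9 genes were called in VC100 against TY1916 embryos and 22 in SP117 against TY1916 embryos, and the other counts stayed within 1.5 times.

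Where arms hold 2 libraries, leaving 1 out assumes that the lone library varies like the other group. Shares of all genes called with a library left out are not given. A changed count of members there cannot be told apart from a change in the whole test. Depth is known only relative to the deepest library, and the absence of spike-ins leaves the scale of whole libraries unmeasured.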
